A study of Mus musculus with 3 samples.

Results

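The interferon regulatory factors (IRFs) are a family of transcription factors. The members described are the 8 genes Irf1, Irf2, Irf3, Irf4, Irf5, Irf7, Irf8 and Irf9, taken by gene symbol. They are 8 of 12880 genes with a value in any of the 3 tables of the authors, and all 8 have a value at 0, 4 and 24 h.

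RNA was sequenced from macrophages of the lungs of LysM-GFP mice on the C57BL/6 background, 6 to 8 weeks old, in a model of acute lung injury by nebulized LPS (1 mg/ml in saline). LPS is a bacterial outer membrane component that activates the receptor TLR4. The groups are named 0h, 4h and 24h by time point, with 1 library each. The treatment text is the same for all of them, so whether the 0h animals were untreated or taken right after nebulization cannot be told from it. In every group a digestion of 50 min at 37 °C is given, and the cells were sorted as GFP+, Ly6g-negative and CD64+. The table headings also name CD11b. GFP in this strain marks cells in which the lysozyme M locus is active, so it is carried by several myeloid cell types and not by macrophages alone. The gene of that locus, Lyz2, had 43, 16 and 21 reads at 0, 4 and 24 h. How many animals went into a library is not given in the sources used here.

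In the genes listed, the 0h, 4h and 24h libraries held 24825976, 20379236 and 25135476 reads. Xist, transcribed from the inactive X chromosome of females, had 13705, 4 and 1 reads in the 0h, 4h and 24h libraries, and the Y-linked Ddx3y had 4, 3994 and 2357. The 0h library therefore stands apart from the others in sex-linked transcripts, and in every comparison with 0 h, time and this difference cannot be told apart. Fcgr1, which encodes the sorting marker CD64, had levels of 2479, 7237 and 2887 normalized counts, and the macrophage marker Cd68 had 21286, 13168 and 17754. With 1 library per group there is no spread between replicates, no test was made, and higher or lower describes these libraries. Levels are reads divided by a factor per library (normalized counts), and each 95% interval is an exact binomial (Clopper-Pearson) interval that covers counting error only. A gene is called different at a plain ratio of at least 2-fold.

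All IRFs bind DNA through a related amino-terminal domain that recognizes repeats of GAAA, the core of interferon-stimulated response elements. IRF3 and IRF7 are phosphorylated after pattern recognition and switch on type I interferon genes. IRF9 is part of the complex ISGF3, which carries the interferon signal to target promoters. IRF1 is induced by interferon-gamma and activates many of the same elements, at which IRF2 can oppose it. IRF5 acts downstream of the adaptor MyD88 on inflammatory cytokine genes, IRF4 competes with it for MyD88, and IRF8 works with PU.1 in monocytes, macrophages and dendritic cells.

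The promoters of 4 members are printed. Irf1 and Irf7 are the members that differed most, Irf2 holds matches to all 4 elements marked below, and Irf8 holds 2 GAS elements. They are RefSeq sequences of build GRCm38.p6, read 5′ to 3′ along the gene, and give the 250 bases before the annotated start. Capitals mark matches on either strand to the IRF element (GAAA, any 2 bases, GAAA), the GAS element (TTC, any 3 bases, GAA), the PU.1 core GAGGAA or the kappaB consensus. Irf1 is at chr11:53769764-53770013 on the plus strand, Irf2 at chr8:46739495-46739744 on the plus strand, Irf7 at chr7:141266425-141266674 on the minus strand and Irf8 at chr8:120736108-120736357 on the plus strand.
Irf1: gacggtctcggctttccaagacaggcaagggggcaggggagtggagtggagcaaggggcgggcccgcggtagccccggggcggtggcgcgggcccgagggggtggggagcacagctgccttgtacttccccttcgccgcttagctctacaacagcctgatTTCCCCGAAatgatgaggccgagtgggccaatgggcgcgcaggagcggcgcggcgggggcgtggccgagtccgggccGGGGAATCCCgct
Irf2: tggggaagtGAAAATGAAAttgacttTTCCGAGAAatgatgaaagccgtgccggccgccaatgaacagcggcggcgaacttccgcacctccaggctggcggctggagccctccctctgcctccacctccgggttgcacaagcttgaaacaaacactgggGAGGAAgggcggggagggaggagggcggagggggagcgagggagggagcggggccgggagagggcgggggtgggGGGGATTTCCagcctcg
Irf7: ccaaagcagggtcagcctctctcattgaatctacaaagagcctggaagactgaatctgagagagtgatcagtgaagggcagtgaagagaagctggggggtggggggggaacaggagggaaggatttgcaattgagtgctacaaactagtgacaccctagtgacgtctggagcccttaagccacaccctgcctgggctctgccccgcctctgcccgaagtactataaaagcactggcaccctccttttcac
Irf8: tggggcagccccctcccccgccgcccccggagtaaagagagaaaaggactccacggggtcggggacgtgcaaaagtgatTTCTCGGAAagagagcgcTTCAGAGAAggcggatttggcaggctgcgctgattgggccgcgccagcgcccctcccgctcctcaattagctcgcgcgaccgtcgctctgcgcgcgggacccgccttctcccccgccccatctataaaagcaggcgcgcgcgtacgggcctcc

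In the search, the window ran from 250 bases before to 50 after the start. The Irf1 window held a GAS element at -90 to -82 and a kappaB consensus at -13 to -4. The Irf2 window held an IRF element at -241 to -232, a GAS element at -224 to -216, a kappaB consensus at -17 to -8 and a PU.1 core on each side of the start. Irf8 held 2 GAS elements, at -171 to -163 and -153 to -145, and Irf7 held none of these elements. The matches marked by capitals did not overlap each other. Among 32851 promoters of the same length, 3.44% held the IRF element, against 1 of 8 members. The GAS element was in 8.30% of promoters and 3 of 8 members (Irf1, Irf2 and Irf8), and the PU.1 core in 28.3% and 3 of 8 (Irf2, Irf4 and Irf9). A wide NF-kappaB pattern (GGG, any 5 bases, CC) was in 50.8% of promoters and 7 of 8 members. The narrower kappaB consensus, added after that was seen, was in 4.51% and 2 of 8 (Irf1 and Irf2). A match is a run of letters and not a shown binding site, and the GC content of the members' windows, 55.0% to 74.7%, lies above the median of all promoters, 52.7%.

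**Figure D1:**
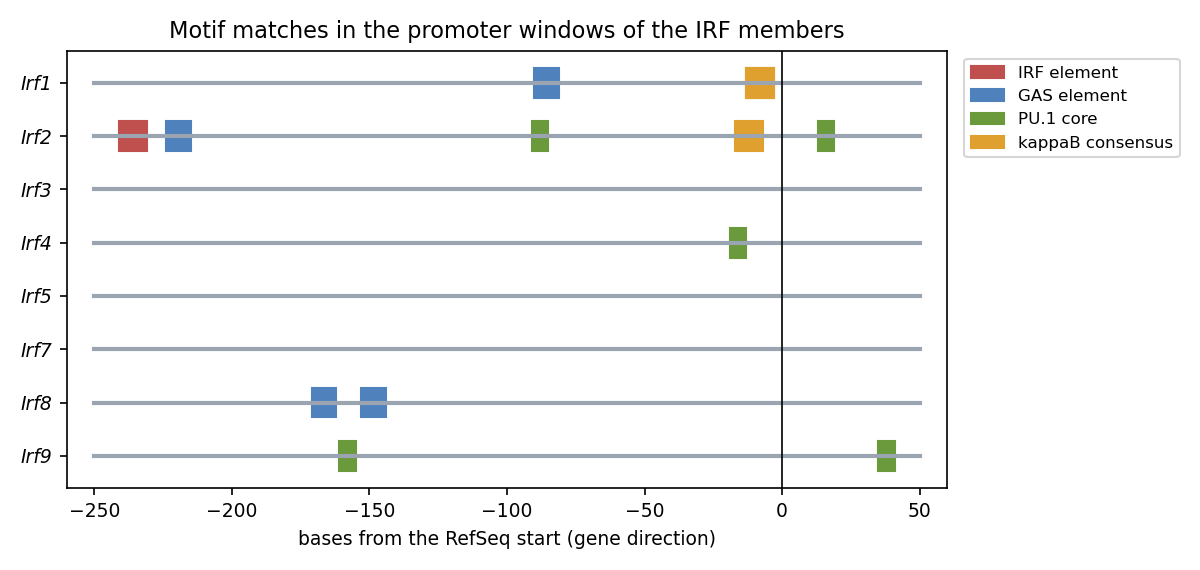
Positions of motif matches in the promoter windows of the 8 members; the horizontal axis gives bases from the RefSeq start in the direction of the gene, each row is a gene, and colours give the motif. Irf2 carries matches to all 4 motifs, Irf8 carries 2 GAS elements, and Irf3, Irf5 and Irf7 carry none of them.

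At 4 h against 0 h, 5 of the 8 members were at least 2-fold higher, none was at least 2-fold lower and 7 were above 0 on the log2 scale. Over all 12512 genes of that comparison 15.0% were at least 2-fold higher and 14.2% lower. The median log2 ratio of the members was 1.27, and that of all genes was near 0. At 24 h against 0 h, 1 member (Irf7) was at least 2-fold higher and none lower, where 4.70% of 12481 genes were higher and 8.82% lower; the members' median was 0.15. At 24 h against 4 h, 5 members were at least 2-fold lower and none higher, where 17.6% of 12684 genes were lower and 14.1% higher, and the median was -1.12. By total count, Irf2, Irf7 and Irf9 fell short of 2-fold in this last comparison, and with ribosomal centring Irf5 joined the lower members.

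The share of listed reads that fell on the family was 0.108% (95% interval 0.107 to 0.109) at 0 h, 0.236% (0.234 to 0.238) at 4 h and 0.129% (0.128 to 0.131) at 24 h. This share divides by all listed reads of a library, which amounts to scaling by total count. Scaling by total count moved the median of all genes by -0.16, 0.17 and 0.32 (log2; 4 h against 0 h, 24 h against 0 h, 24 h against 4 h), and centring on 75 cytosolic ribosomal protein genes moved it by -0.53 and -0.52 in the comparisons with 24 h. Of genes called at 24 h against 0 h, 34.7% were higher, which became 49.9% by total count and 6.84% by ribosomal centring; at 24 h against 4 h, 44.5% became 64.9% and 16.9%. All 8 members kept the sign of their 4 h against 0 h ratio under each scaling tried. In sorted bulk samples, a difference in the mix of cells and a difference in RNA per cell cannot be told apart.

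**Figure D2:**
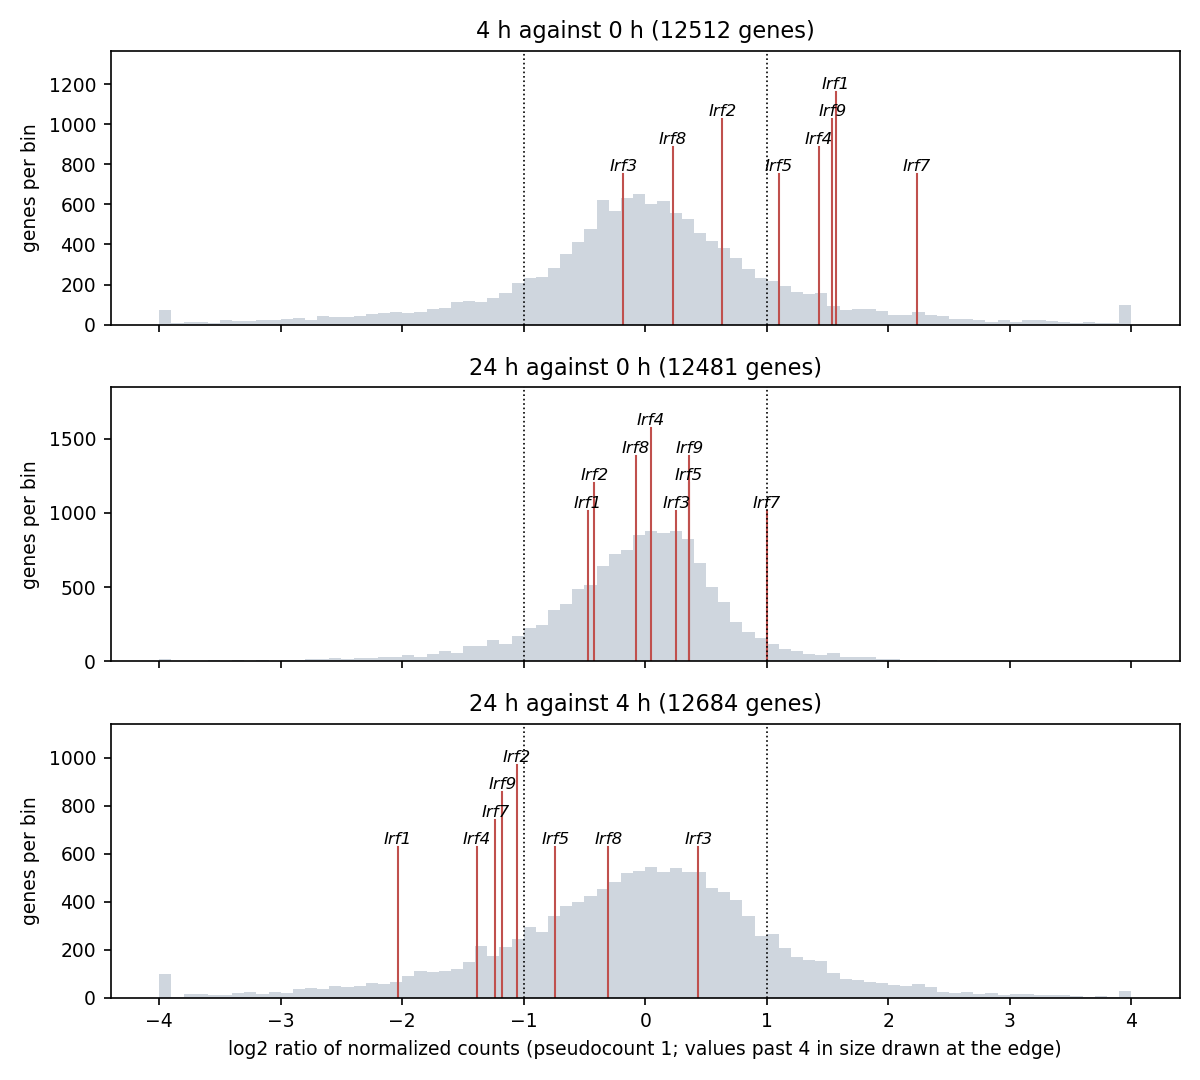
Histograms of the log2 ratio of normalized counts (pseudocount 1) over all genes in each comparison, with genes per bin on the vertical axis; red lines mark the 8 members and dotted lines the 2-fold limits. At 4 h against 0 h 5 members lie to the right of the upper limit, at 24 h against 0 h Irf7 lies on it, and at 24 h against 4 h 5 members lie to the left of the lower limit.

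Irf7, Irf9 and Irf3 belong to the type I interferon pathway. Irf7 (mm10 chr7:141263183-141266424, minus strand) had 2582, 12162 and 5175 normalized counts in the 0h, 4h and 24h libraries. It was the member with the widest ratio at 4 h, 4.71-fold higher than at 0 h (95% interval 4.51 to 4.92), which placed it at the 96.2 percentile of all genes. At 24 h it was 2.35-fold lower than at 4 h (2.28 to 2.43) and 2.004-fold higher than at 0 h (1.92 to 2.10), an interval that spans the 2-fold limit. The call at 24 h against 0 h was lost with ribosomal centring, where the log2 ratio was 0.47. Of its difference between 0 and 4 h, 27.1% was still present at 24 h.

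Irf9 (chr14:55603985-55610030, plus strand), the DNA-binding part of ISGF3, had 1531 normalized counts in the 0h library, 4452 in the 4h library and 1968 in the 24h library. The 4h library stood 2.91-fold above 0 h (2.74 to 3.09), and the 24h library was 2.26-fold below 4 h (2.15 to 2.38). At 24 h Irf9 was 1.29-fold higher than at 0 h (1.21 to 1.37), with the opposite sign under ribosomal centring. In the GENCODE annotation, where Irf9 begins at 55603571, its exons share 123 bases with Rnf31 on the same strand. The span given by the authors begins at 55603985, and whether the shared bases fall in it was not checked. If they do, part of the Irf9 reads could belong to either gene.

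Irf3 (chr7:44997648-45002848, plus strand), which is usually present before stimulation and controlled by phosphorylation, was the 1 member lower at 4 h. Its levels were 1471, 1297 and 1758 normalized counts at 0, 4 and 24 h. At 4 h it was 1.13-fold lower than at 0 h (1.05 to 1.23), and at 24 h 1.35-fold higher than at 4 h (1.26 to 1.46) and 1.20-fold higher than at 0 h (1.12 to 1.28); ribosomal centring reversed both signs at 24 h. None of these ratios reached 2-fold. Reads of Irf7 per read of Irf3 within a library, a measure free of scaling, were 1.76 at 0 h, 9.37 at 4 h and 2.94 at 24 h. This ratio was 5.34 times as high at 4 h as at 0 h (4.88 to 5.84) and 1.68 times as high at 24 h (1.55 to 1.81), the widest of the 4 pairs compared.

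**Figure D3:**
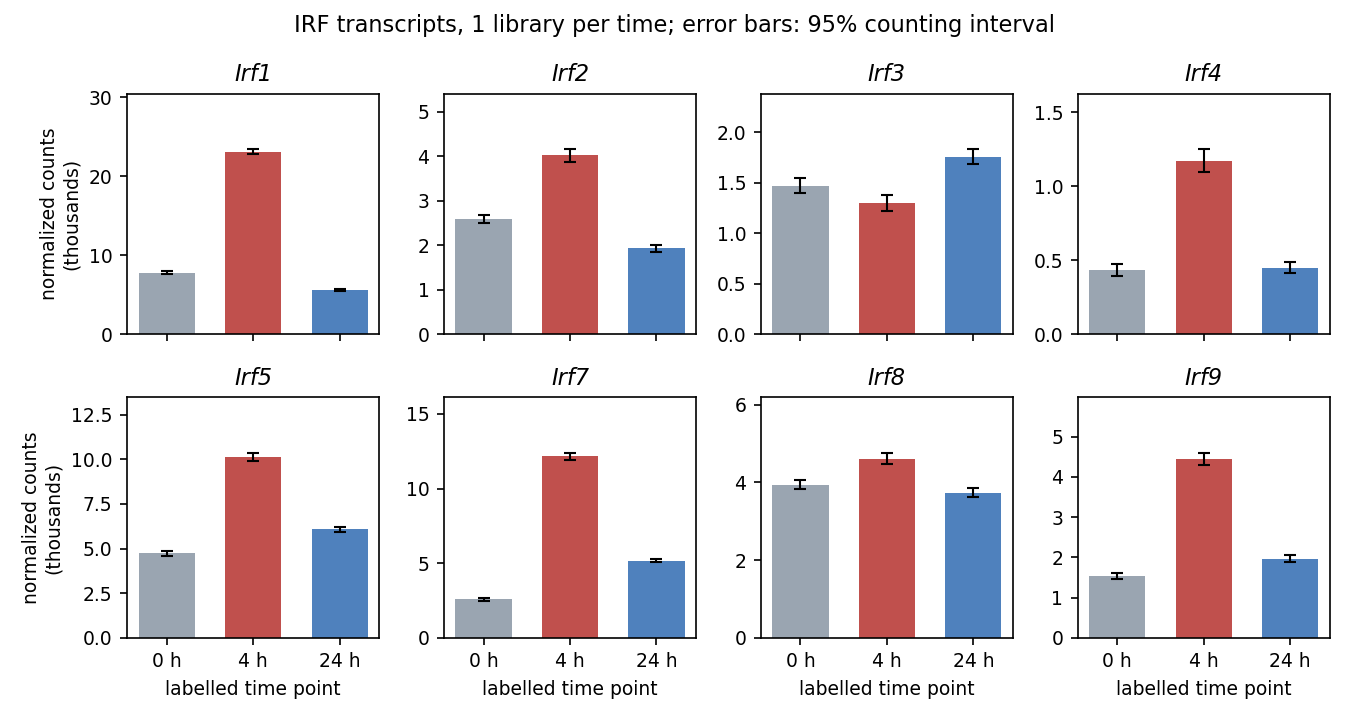
Normalized counts of the 8 members, drawn in units of 1000, at 0, 4 and 24 h, 1 library per bar, each panel with its own axis from 0; error bars are 95% counting intervals. In 7 members the 4h bar is the tallest, whereas in Irf3 the 4h bar is the shortest.

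Irf1 and Irf2 encode an activator and its classical antagonist. Irf1 (chr11:53770014-53777324, plus strand) had 7800.4 normalized counts in the 0h library, 23126 in the 4h library and 5629 in the 24h library. It was 2.96-fold higher at 4 h than at 0 h (2.89 to 3.04; 92.7 percentile) and 4.11-fold lower at 24 h than at 4 h (4.00 to 4.22), the widest ratio of any member in that comparison. At 24 h it lay 1.39-fold below 0 h (1.34 to 1.43). The 24h library was thus the lowest of the 3, with the same sign under each scaling. In the GENCODE annotation, where Irf1 ends at 53778374, its exons share 100 bases with Gm17334 on the opposite strand. The span given by the authors ends at 53777324, and whether the shared bases fall in it was not checked. If they do, reads there cannot be told apart unless strand was used in counting.

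Irf2 (chr8:46739745-46847458, plus strand) had 2590.5, 4023 and 1937 normalized counts in the same order of libraries. The 4 h against 0 h ratio was 1.55 (1.48 to 1.63). At 24 h Irf2 was 2.08-fold lower than at 4 h (1.97 to 2.19), an interval that spans the limit, and 1.34-fold lower than at 0 h (1.27 to 1.41), with the same sign under each scaling. Reads of Irf1 per read of Irf2 were 3.01 at 0 h, 5.75 at 4 h and 2.91 at 24 h. The ratio was 1.91 times as high at 4 h as at 0 h (1.80 to 2.02) and 0.965 times at 24 h (0.906 to 1.03), an interval that holds 1.

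Irf5 and Irf4 meet at MyD88. Irf5 (chr6:29526625-29537320, plus strand) had 4733, 10145 and 6071 normalized counts at 0, 4 and 24 h. It was 2.14-fold higher at 4 h than at 0 h (2.07 to 2.22), just past the limit and under it by total count. At 24 h it was 1.67-fold lower than at 4 h (1.62 to 1.72) and 1.28-fold higher than at 0 h (1.24 to 1.33), the latter with the opposite sign under ribosomal centring. Of the 4 h difference 24.7% was present at 24 h. In the GENCODE annotation, where Irf5 ends at 29541871, its exons share 251 bases with Tnpo3 on the opposite strand. The span given by the authors ends at 29537320, and the limits stated for Irf1 apply.

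Irf4 (chr13:30749258-30766927, plus strand) was the least abundant member, with 434, 1173 and 448 normalized counts at 0, 4 and 24 h. The 4 h library was 2.70-fold higher than 0 h (2.41 to 3.03), and 24 h was 2.62-fold lower than 4 h (2.35 to 2.92). At 24 h the ratio to 0 h was 1.03 (0.910 to 1.17), an interval that holds 1 and a sign that ribosomal centring turned, with 1.84% of the 4 h difference left. Reads of Irf5 per read of Irf4 were 10.9, 8.65 and 13.6 at 0, 4 and 24 h. They were 1.26-fold lower at 4 h than at 0 h (1.12 to 1.42) and 1.24-fold higher at 24 h (1.09 to 1.41), so the 2 genes differed in the size of their ratios at both times by small amounts.

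Irf8 (chr8:120736358-120756692, plus strand), a lineage factor of monocytes and dendritic cells, differed little between libraries. Its levels were 3943, 4617 and 3738 normalized counts at 0, 4 and 24 h. It was 1.17-fold higher at 4 h than at 0 h (1.12 to 1.22). At 24 h it was 1.24-fold lower than at 4 h (1.18 to 1.29), and its ratio to 0 h was 0.948 (0.909 to 0.989); by total count both signs were opposite. Reads of Irf8 per read of Irf4, the other lineage-restricted member, were 9.08 at 0 h, 3.94 at 4 h and 8.35 at 24 h. This ratio was 2.31-fold lower at 4 h than at 0 h (2.05 to 2.60), and at 24 h it was 0.919 times that at 0 h (0.807 to 1.05), an interval that holds 1.

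**Figure D4:**
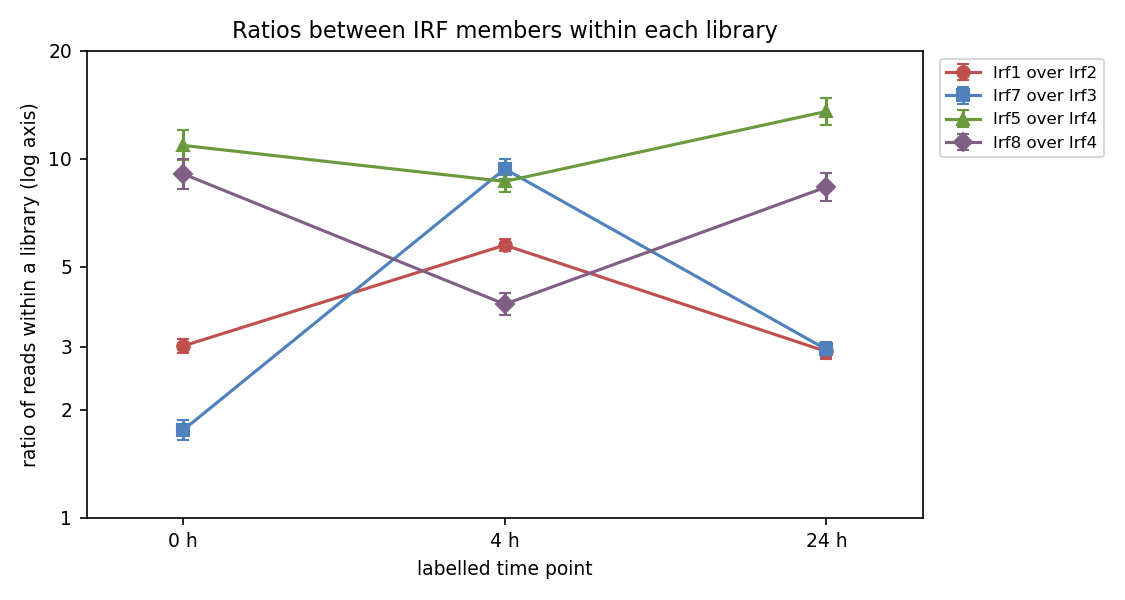
Ratio of reads between 2 members of the same library (log axis) at 0, 4 and 24 h for 4 pairs, with 95% counting intervals. Irf7 over Irf3 and Irf1 over Irf2 are highest at 4 h (9.37 and 5.75), while Irf8 over Irf4 is lowest there (3.94).

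Levels of different genes were compared per kilobase of the union of annotated exons. At 0 h the order was Irf1 (2338 normalized counts per kilobase), Irf5 (1788), Irf8 (1148), Irf7 (1079), Irf2 (1037), Irf3 (672), Irf9 (493) and Irf4 (91.2), with Irf7 and Irf2 not separated by their counting interval. At 4 h Irf1 (6930.3) was followed by Irf7 (5082), Irf5 (3833), Irf2 (1611), Irf9 (1435), Irf8 (1344), Irf3 (593) and Irf4 (246). At 24 h Irf5 (2293) led Irf7 (2163), Irf1 (1687), Irf8 (1088), Irf3 (803), Irf2 (776), Irf9 (634) and Irf4 (94.0), with Irf3 and Irf2 not separated. Irf1 held 27.0%, 32.9% and 17.7% of the family's level per kilobase at 0, 4 and 24 h, and Irf7 held 12.5%, 24.1% and 22.7%. With the longest coding transcript as length, Irf1 and Irf7 changed places at 24 h, and Irf8 moved ahead of Irf2 and Irf9 at 4 h.

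The genes whose levels over the 3 libraries were most like a member's were found by the distance of log2 levels centred on each gene's mean, among 4526 genes whose mean level reached 1000 normalized counts (4527 for Irf4). Those nearest to Irf1 were Zeb2 (distance 0.014), a transcriptional repressor, and Sod2, the mitochondrial superoxide dismutase, with 4 genes within 0.1. Irf7 also had 4 genes within 0.1, led by Acer3, a ceramidase, and Trim12c. Irf4 was nearest to Peli1, a ubiquitin ligase of Toll-like receptor signalling, and to Erbb2ip. Irf9 was nearest to Ppig and Zdhhc21, and both Irf4 and Irf9 had 18 genes within 0.1. Irf5 was nearest to Pnp and Slc25a22 with 32 genes, and Irf2 to R3hdm1 and Fam53c with 45. Irf3 (Commd1, Chmp1b) had 97 and Irf8 (Zfp655, Hk3) had 101, so patterns close to theirs were the most common. Within the family the closest pair was Irf4 and Irf9 (distance 0.229) and the farthest was Irf1 and Irf3 (1.80). These likenesses rest on 3 libraries.

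The genes upstream of the IRFs were counted from lists of known adaptors, partners and interferon receptors. Of 17 adaptors and kinases that activate IRFs, 7 were at least 2-fold higher at 4 h than at 0 h and 1 lower. Over all genes 15.0% were higher and 14.2% lower. Between 4 and 24 h 8 of the 17 were lower and 1 was higher at 24 h (4 lower by total count, 13 with ribosomal centring). Over all genes 17.6% were lower and 14.1% higher. The DNA sensor cGAS, listed as E330016A19Rik, was 5.36-fold higher at 4 h than at 0 h (4.85 to 5.92), and Ikbke, a kinase of IRF3 and IRF7, 3.82-fold higher (3.54 to 4.12). Mavs, the adaptor of the cytosolic RNA sensors, was 3.36-fold lower (3.08 to 3.66). Myd88, the adaptor to which IRF5 and IRF4 bind, had 4974, 12296 and 4969 normalized counts at 0, 4 and 24 h.

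Of 15 partner factors, 3 were at least 2-fold higher at 4 h than at 0 h and none lower, where 15.0% and 14.2% of all genes were. Among the higher were Stat2 at 4.68-fold (4.46 to 4.91), which forms ISGF3 with IRF9, and Batf2 at 3.09-fold (2.50 to 3.83). Between 24 h and 0 h 1 was higher at 24 h (Batf3, 2.33-fold, 2.01 to 2.72) and 3 were lower, where 4.70% of all genes were higher and 8.82% lower. With ribosomal centring 0 were higher and 5 lower, by total count 1 and 2, and the sign of the list's median turned by total count. The lower genes were led by the coactivator Crebbp at 4.61-fold (4.11 to 5.18) and the repressor Prdm1 at 3.43-fold (3.19 to 3.68). Of 14 negative regulators 5 were higher at 4 h and none lower, with Usp18, which blocks the interferon receptor, at 13.3-fold (11.5 to 15.4). Relative to 0 h, 1 of them was higher at 24 h and 2 were lower, against 4.70% and 8.82% of all genes, with Tnfaip3 5.07-fold lower (4.95 to 5.19).

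Of 13 interferons, receptors and JAK kinases, 8 had a value at 0 and 4 h. At 4 h 2 of these were at least 2-fold higher than at 0 h, Jak2 at 5.81-fold (5.52 to 6.12) and the receptor chain Ifnar1 at 2.50-fold (2.38 to 2.62). Over all genes the share was 15.0%. Ifnb1, the interferon gene that IRF3 and IRF7 act on, was sparse, with 21, 25 and 1 reads at 0, 4 and 24 h. Ifnb1 transcript was thus near the lower limit of these libraries at every time.

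Genes known as IRF targets were read in the same way, from lists chosen with earlier results of these data known. Their counts are therefore descriptive, and Usp18 is both among the negative regulators and in the first of these lists. Against 0 h, 15.0% of all genes were at least 2-fold higher and 14.2% lower at 4 h, and 4.70% and 8.82% at 24 h. At 24 h against 4 h 17.6% were lower. All 21 targets of ISGF3, IRF3 and IRF7 were at least 2-fold higher at 4 h than at 0 h (median log2 ratio 3.52). Among them were the chemokine Ccl5, 43.4-fold (36.9 to 51.4), and the antiviral Rsad2, 32.5-fold (29.5 to 36.0). By 24 h 6 were still at least 2-fold above 0 h (9 by total count, 3 with ribosomal centring), led by Ccl5 (7.49-fold, 6.33 to 8.92) and the antiviral Mx2 (3.36-fold, 2.76 to 4.12), and Cxcl10 was 4.41-fold lower (4.10 to 4.76). All 21 were at least 2-fold lower at 24 h than at 4 h, 20 of them by total count. Of 18 targets of IRF1, 12 were higher at 4 h and none lower, with Nos2, the inducible nitric oxide synthase, at 23.8-fold (17.2 to 33.7). Set against 0 h, none was at least 2-fold higher at 24 h and 1 was lower, Gbp5 at 2.11-fold (1.90 to 2.34). Over all genes 4.70% were higher and 8.82% lower. Of the 18 targets, 10 lay above 0 on the log2 scale (median 0.13), whereas Irf1 itself lay below 0 h. By ribosomal centring 5 were lower and the sign of the median turned.

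Over all genes 15.0% were at least 2-fold higher and 14.2% lower at 4 h than at 0 h. Of 6 cytokine targets of IRF5, 4 were at least 2-fold higher at 4 h than at 0 h and 2 were lower. Among the higher, Il12a had 1.87, 59.7 and 0.822 normalized counts at 0, 4 and 24 h. It passed the listing limit, a mean above 10, only through the 4h library, so its call could not have gone the other way. Il12b, the shared chain of interleukins 12 and 23, was 7.55-fold higher (5.78 to 9.99), whereas Tnf was 2.89-fold lower (2.82 to 2.96) and Il23a 2.27-fold lower (2.04 to 2.54). Tnf had 30054, 10411 and 3270.4 normalized counts, and so was highest in the 0h library, unlike Irf5. Of 6 myeloid targets of IRF8 2 were higher at 4 h and none lower, and Pml was 3.19-fold higher (2.91 to 3.49). Of 10 genes of alternative activation linked to IRF4, 4 were higher, such as Cd209a at 8.00-fold (6.89 to 9.32), and 2 were lower, among them Mrc1 at 2.66-fold (2.61 to 2.72).

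**Figure D5:**
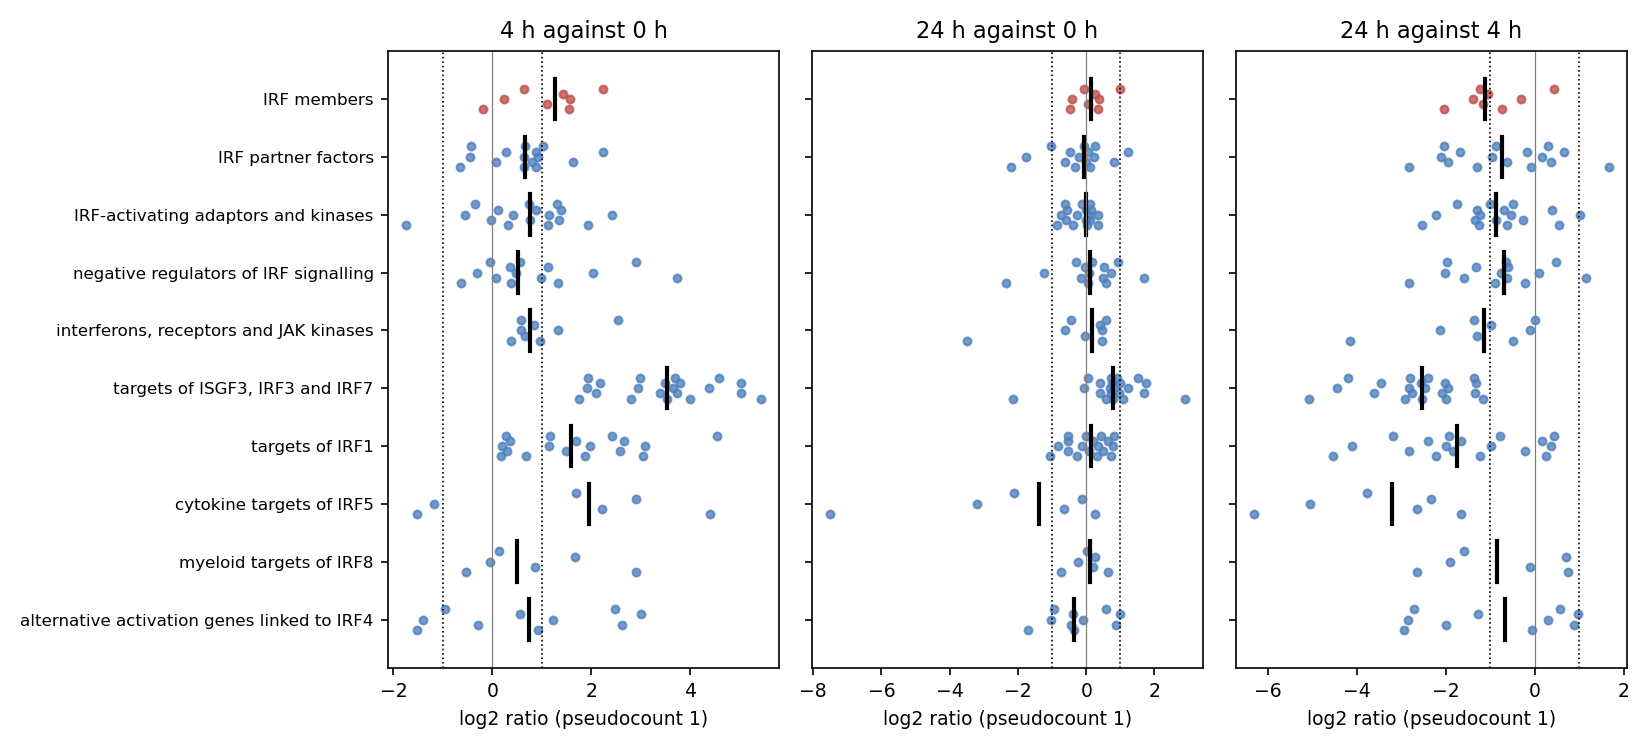
Log2 ratio (pseudocount 1) of each measured gene in the family and 9 lists of pathway genes and targets, for the 3 comparisons; points are genes, black bars are medians and dotted lines the 2-fold limits. All 21 targets of ISGF3, IRF3 and IRF7 lie past the upper limit at 4 h against 0 h, where 15.0% of all genes do. The family's median moves from 1.27 in that comparison to 0.15 at 24 h against 0 h.

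Markers of several cell types moved with the members, and their part in the ratios was not tested. Against 0 h, 15.0% of all genes were at least 2-fold higher and 14.2% lower at 4 h, and 4.70% and 8.82% at 24 h. The sum of 13 classical monocyte markers was 171271, 738765 and 135285 normalized counts at 0, 4 and 24 h, and 12 of 13 were at least 2-fold higher at 4 h than at 0 h. At 24 h 8 of 13 were higher than at 0 h and 2 lower, with Ccr2 5.31-fold higher (5.10 to 5.53) and Fn1, the gene with the highest level of the list, 3.44-fold lower (3.39 to 3.48). The sum of 17 alveolar macrophage markers was 1065293, 331679 and 685445, and 15 of 17 were lower at 4 h and 2 of 17 at 24 h, both against 0 h. With ribosomal centring 9 of 17 were lower at 24 h. Chi3l3 led this sum (601110, 209378 and 310123), and the other 16 summed to 464183, 122301 and 375322. Of 14 neutrophil markers 10 had a value at 0 h, and of these all were higher at 4 h and 6 at 24 h (sums 5033, 39721 and 8113). The family total, 25084, 60994 and 26723 normalized counts, was also highest at 4 h.

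For IRF4 and IRF8, which B cells and dendritic cells also express, the B cell marker Cd79a had 11 reads at 4 h and 46 reads at 24 h. The 4 B cell markers with a value in the 3 libraries did not move together. Cd22 had 4706, 1457 and 2364 normalized counts, whereas the other 3 summed to 75.6, 132 and 249, with Igj 2.15-fold higher at 4 h than at 0 h (1.17 to 4.04) and Cd79b 4.85-fold higher at 24 h than at 0 h (3.47 to 6.94). Of all genes, 15.0% were at least 2-fold higher and 14.2% lower at 4 h, and 4.70% and 8.82% at 24 h, both against 0 h. Of 12 conventional dendritic cell markers, 5 were at least 2-fold higher and 3 lower at 4 h, and 4 higher and 1 lower at 24 h, both against 0 h. With ribosomal centring 1 was higher and 4 were lower at 24 h, and the sign of the median of these markers turned. Their sum, 13996, 12606 and 8575, was mostly Wdfy4 (11682, 6484 and 5021), and the other 11 summed to 2314, 6122 and 3555, with Flt3 8.30-fold higher at 4 h (7.01 to 9.89). The plasmacytoid markers summed to 3843, 5769 and 4478, with 3 of 6 higher and 2 lower at 4 h than at 0 h. By total count 2 were higher and 3 lower. Bst2 led this sum (1172, 2539 and 2346), and the other 5 summed to 2671, 3231 and 2132.

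The counts that follow stand beside 15.0% of all genes higher and 14.2% lower at 4 h, and 4.70% and 8.82% at 24 h. Of 13 T and NK cell markers, 6 had a value at 0 h. Set against 0 h, the 4h library had 5 of these higher and 1 lower and the 24h library 4 higher and 1 lower. A gene near 0 at 0 h was listed only where the other library was higher, so these counts lean toward higher calls. Gzma, with 7.47 normalized counts at 0 h, was 9.35-fold higher at 24 h (4.54 to 22.4) and Cd4 6.64-fold lower (4.32 to 10.6). The 6 markers summed to 229, 542 and 240 normalized counts, and without Il7r the other 5 summed to 159, 173 and 144. Of 10 epithelial markers 3 were higher and 2 lower at 4 h, with Scgb1a1 43.9-fold higher (35.9 to 54.3) and Epcam 6.01-fold lower (4.99 to 7.29). Their sums were 15070.4, 15611 and 15157, and without Sftpc the other 9 summed to 7253, 9532 and 5508. Of 8 endothelial markers 1 was higher and 1 lower at 4 h, and 2 higher and 1 lower at 24 h. Vwf had 3292, 564 and 1533 normalized counts, and the other 7 summed to 894, 1609.5 and 1543. Ly6g, Siglech, Pax5 and Cd3e had no value.

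In the authors' deposited table of 4 h against 0 h, Irf7 had a log2 fold change of 1.65 (SE 0.82) and a p of 0.0441 from DESeq2, the 1 member with a p below 0.05 in any of the authors' 3 deposited tables. Such a p was given to 5.16% of genes in that table, and to 3.16% (24 h against 0 h) and 4.44% (24 h against 4 h) in the other authors' deposited tables. In the authors' deposited table of 4 h against 0 h, Benjamini-Hochberg adjustment over its 12512 genes gave 0.942 for Irf7. A log2 fold change of at least 1 was found in the authors' deposited tables for 4 members at 4 h against 0 h (8.86% of genes higher, 9.02% lower), for none at 24 h against 0 h (0.539% higher, 2.14% lower) and for 2, lower, at 24 h against 4 h (10.2% lower, 7.26% higher). Irf1 had -1.46 in the authors' deposited table of 24 h against 4 h. Those values are shrunken toward 0 and rest on the same single libraries.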

How the data were processed

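RNA from sorted lung macrophages was sequenced in 1 library per time point, as labelled. Per the submitters' processing notes, DESeq2 and the mm10 build were used; the aligner and the use of strand in counting: not given in the sources used here. The authors deposited 3 pairwise tables of signal values, log2 fold changes, p-values and a test statistic (a score, not used). The deposited signal is reads divided by a size factor, and whole reads were recovered for 100% of values (tolerance 0.001 reads). The tables list genes with a mean above 10. A gene near 0 in 1 library of a pair is therefore listed only where the other is higher, which favours calls in that direction. The first column of the 24 h against 0 h table is headed 4h, but its reads equal the 0h library in 12310 of 12310 shared genes. It was therefore used only for this check. At most 20 repeated rows were dropped from any 1 table.

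Reads were divided by median-of-ratios factors over 12481 genes (1.07, 0.788 and 1.22 at 0, 4 and 24 h). Log2 ratios used a pseudocount of 1; folds are plain ratios. Intervals cover counting error only, since reads are not independent molecules. No count model was fitted, as 1 library per group leaves no residual degrees of freedom. Scripts were tested on simulated data. Exon lengths came from GENCODE for 12759 genes. Gene starts, 0-based in the files, are given 1-based. The 8 members and the 18 lists (206 of 224 genes matched) were chosen with earlier results of these data known. Named genes are the members, the 2 genes of each list with the widest ratio in each direction among those at least 2-fold with at least 30 reads (or the most abundant), and the 2 nearest to each member; Lyz2, Xist, Ddx3y, Fcgr1, Cd68, Ifnb1, Cd79a and Cd22 were chosen after their values were seen. Alternatives were scaling by total count, edgeR 4.0.16 TMM factors or ribosomal protein genes, the deposited values and fold changes, other pseudocounts, call limits and a filter. Python 3.11.15 and R 4.3.3 were used. Some genes are not reported here.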

Additional observations from a re-analysis of the deposited data

How the results depend on the processing

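No member past 2-fold changed sign under any alternative; the smaller ratios that did are named beside their values above. Of 58 recomputed member counts 51 stayed within 1.5 times. These include counts of none that stayed none. The filter kept the same ratios for the members, so this tally is no measure of stability. At 4 h against 0 h, 1 member was higher at a 3-fold limit. At 24 h against 0 h, the number higher was 0 with ribosomal centring, with the authors' deposited log2 fold changes and at 3-fold. At 24 h against 4 h, the number lower was 2 by total count, 2 with the authors' deposited log2 fold changes and 1 at 3-fold. By the longest coding transcript, a length chosen after seeing the data, the rank at 24 h was 2 for Irf1 and 3 for Irf7, and at 4 h 4 for Irf8, 5 for Irf2 and 6 for Irf9. The cause was not tested. The deposited values scaled within the pair were not run for 24 h against 0 h, where a column heading names another time. The other list scalings, also chosen after seeing the data, turned the sign of medians under 1 in size alone. No paired analysis was possible because each group has 1 library. Depth is not the limit for the members, each with at least 465 reads in every library, but the spread between animals is unknown.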
